A study of Mus musculus with 2 samples.

Results

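Wide footprints found in both libraries are stretches of open chromatin, 25 bp or longer, that were called as protected from DNase I at the same place in each of 2 spleen libraries. They were selected on their measured width and on being shared: a footprint of 25 bp or more in one library had to overlap one of 25 bp or more in the other by at least 1 bp, inside a region made of overlapping peaks of both libraries. Of 110021 shared footprint loci, 21024 (19.1%) met this rule and are called wide, 72503 (65.9%) held only footprints under 25 bp and are called narrower, and 16494 were wide in 1 library alone. The wide loci used 21034 of the 217159 footprints of replicate 1 and 21025 of the 252901 footprints of replicate 2. The wide class was set against the narrower one, and because width and sharing chose both, their widths are given only as a description.

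DNase-seq, in which the nuclease cuts accessible DNA, was run on whole spleen of male B6CASTF1/J mice aged 4 days, first-generation hybrids of C57BL/6J and CAST/EiJ. There was 1 group with 2 biological replicates, no treatment and no contrast between conditions. The labels number the 2 males apart but give both the same donor identifier, so whether the spread between libraries is that between animals is not certain. The smallest two-sided p of a paired exact permutation over 2 libraries is 0.5, so each comparison is given in both libraries with no test. Spleen is a mixture of cell types, and protection in fewer cells cannot be told apart from weaker protection in more cells. Numbers of reads behind the lists are unknown, so intervals for counting error could not be given. Coordinates are on mm10, the mouse assembly GRCm38.

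A footprint can arise where a bound protein shields DNA from the nuclease, and its length then depends on how much DNA the protein or protein group covers. Whether each called footprint has this origin was not tested. CTCF, a protein with a long array of zinc fingers that anchors chromatin loops and acts at insulators, covers an unusually long site. REST, which represses neuronal genes outside neurons, and TFIIIC, which binds the A and B boxes inside tRNA genes for RNA polymerase III, also contact long stretches. GATA1, PU.1 and AP-1 family proteins, which act in blood cells, recognise short sites. Binding was not measured here, and a motif match describes only the letters of the DNA.

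The sequences below come from the RefSeq copy of GRCm38, run 5 bp past the union of both footprints, and stand on the strand of the match. They show the forms of site described further on. Each comes from among the loci of its kind in regions of highest signal, leaving out those that touch an untranslated region. The short CTCF sites were taken from introns or intergenic DNA, the long ones from footprints of at least 40 bp, and the tRNA genes from those with no repeated word (defined further on). Capitals mark the motif, and in the long CTCF sites also the upstream letters GCANTNCC. The last line is the widest locus by the lower of its 2 widths, a GT repeat, printed without capitals.
CTCF short form, Trpv4, chr5:114667704-114667743, minus strand: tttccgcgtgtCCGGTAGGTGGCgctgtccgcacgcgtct
CTCF short form, Acot11, chr4:106839038-106839083, plus strand: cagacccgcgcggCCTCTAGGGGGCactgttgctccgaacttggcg
CTCF long form, Csk, chr9:57645683-57645737, minus strand: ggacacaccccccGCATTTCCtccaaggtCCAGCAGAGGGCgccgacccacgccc
CTCF long form, Ptma, chr1:86501755-86501809, plus strand: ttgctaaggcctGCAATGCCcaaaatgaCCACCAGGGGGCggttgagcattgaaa
CTCF narrower locus, Zc3h18, chr8:122376474-122376496, plus strand: gcCCGCTAGAGGGCggggtcgac
REST, Nkx1-1, chr5:33438334-33438373, plus strand: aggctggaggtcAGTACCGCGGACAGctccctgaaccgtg
REST, Npas4, chr19:4989152-4989190, plus strand: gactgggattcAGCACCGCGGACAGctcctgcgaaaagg
NRF1, Nup107, chr10:117792740-117792783, plus strand: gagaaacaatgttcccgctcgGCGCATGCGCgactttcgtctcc
CREB, Stat3, chr11:100939807-100939862, plus strand: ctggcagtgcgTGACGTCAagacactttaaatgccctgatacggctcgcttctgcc
ZNF143, Crebl2, chr6:134830051-134830108, plus strand: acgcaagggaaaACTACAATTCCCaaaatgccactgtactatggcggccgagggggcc
tRNA-Ser gene n-TStga3, chr10:63429470-63429523, minus strand: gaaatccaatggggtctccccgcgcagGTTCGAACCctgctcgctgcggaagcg
tRNA-Arg gene n-TRtcg5, chr7:79466448-79466501, plus strand: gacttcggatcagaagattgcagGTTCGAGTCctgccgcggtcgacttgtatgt
GT repeat, Epm2a, chr10:11350695-11350795, plus strand: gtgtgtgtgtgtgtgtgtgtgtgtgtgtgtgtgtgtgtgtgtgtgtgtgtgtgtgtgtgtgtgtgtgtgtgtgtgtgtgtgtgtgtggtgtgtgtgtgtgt

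Wide loci overlap in both libraries by the rule, and their edges often differed by a few bases. Of 26934 footprints of 25 bp or more in shared regions of replicate 1, 78.1% overlapped a wide footprint of replicate 2, 20.4% overlapped only a narrower one and 1.46% overlapped none. Of 32555 in replicate 2, the shares were 64.6%, 33.8% and 1.66%. Wide loci had a median width of 30 bp in replicate 1 and 32 bp in replicate 2, with the widest at 91 and 111 bp, against 12 and 13 bp in narrower loci. Both edges lay within 2 bp of each other in 51.6% of wide loci and 33.2% of narrower loci. The left edge fell on the same base in 29.5% of wide loci and 21.2% of narrower loci. In 60.8% of wide loci the footprint was longer in replicate 2, and in 24.4% it was longer in replicate 1. A single footprint of each library made up 19179 of the wide loci (91.2%).

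**Figure D1:**
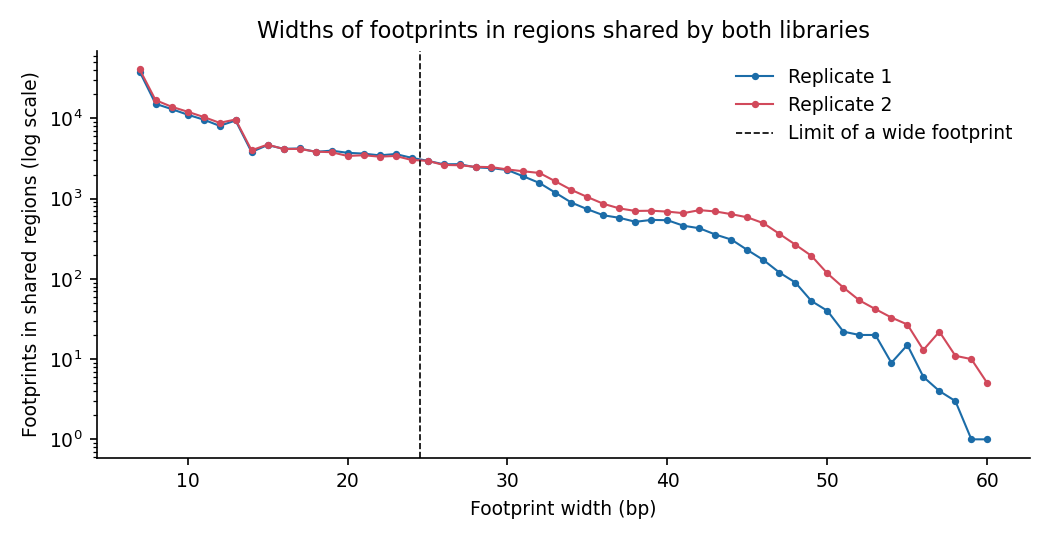
Number of footprints (log axis) at each width up to 60 bp in shared regions, for replicate 1 and replicate 2, with a dashed line at the 25 bp limit. The curves run close together to about 30 bp, and replicate 2 holds more of the longest footprints.

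The limit of 25 bp cut a continuous distribution. By the lower of the 2 widths, 2370 shared loci had 25 bp and 2637 had 24 bp, of which 2290 were wide in 1 library. Loci at 25 bp held a CTCF core in 18.4% and those at 24 bp in 15.7%. Their promoter shares were 49.6% and 52.7%, and their median region signals in replicate 1 were 4.39 and 4.86. Signal is the authors' value for the strongest peak of a region, on a scale of its own in each library. Among the 5 loci in the strongest regions at 25 bp were sites near the start sites of Acsl1, Ulk1 and Fam53a, with signals from 34.1 to 41.6 in replicate 1. The 5 strongest narrower loci at 24 bp lay near Gpr155, Ddx54, Cd82, Cnnm2 and Lpcat3, with signals from 33.2 to 38.3.

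The core of the CTCF site was the sequence that set wide loci most apart. It was searched on both strands as CC, then 3 bases of any kind, then AG, A or G, G or T, and GGC, in 40 bp on the centre of each locus. It was found in 5707 of 21024 wide loci (27.1%) and in 2023 of 72503 narrower loci (2.79%), a ratio of 9.73. The wide loci with a core in the strongest regions were 61680 bp from Gm15319 (53 and 49 bp, with a repeated word) and near Dcaf6 (32 and 33 bp) and Copg1 (29 and 28 bp), with signals of 35.4, 35.3 and 32.4 in replicate 1. Windows of equal length centred 80 bp to either side held it in 1.87% of wide loci and 2.09% of narrower loci, and 2.60% of all 331499 tiles of 40 bp in shared regions held it. Within replicate 1 alone the shares were 22.8% of footprints of 25 bp or more and 3.09% of shorter ones, and within replicate 2 alone 22.8% and 2.12%. In regions that held both a wide and a narrower locus they were 27.5% and 0.596%. These regions were chosen for holding a wide locus, so narrower loci with a core in other regions are left out. The 0.596%, under the share of the tiles, therefore cannot be read as a level of narrower loci in general. When 1 mismatch was allowed, 48.4% of wide loci and 10.6% of narrower loci matched in the same 40 bp.

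Width and the CTCF core were not related in a straight line. With all shared loci ordered by the lower of the 2 widths, the core was in 1.88% of loci of 7 to 10 bp, 4.16% at 11 to 14 bp, 6.22% at 15 to 19 bp and 11.5% at 20 to 24 bp. It was in 26.5% at 25 to 29 bp, 32.4% at 30 to 34 bp, 16.2% at 35 to 39 bp and 26.9% at 40 bp and over. The share thus had a high point at 30 to 34 bp, a dip, and another rise in the longest loci. Of the 9844 shared loci with a core, 58.0% were wide, against 19.1% of all shared loci.

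**Figure D2:**
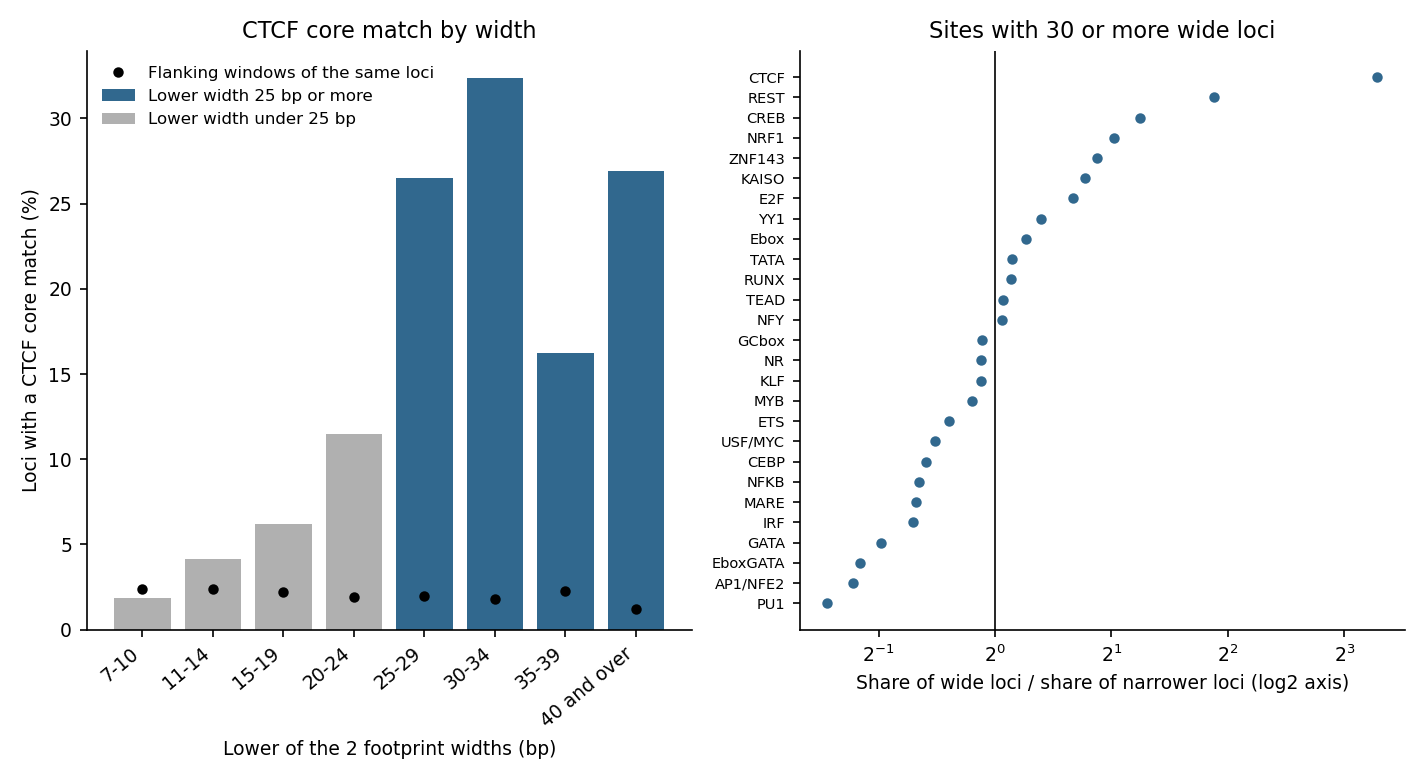
Left, share of loci with a CTCF core match in bins of the lower of the 2 widths, with the flanking windows of the same loci as black points; right, ratio of the share of wide loci to the share of narrower loci for each site with 30 or more wide loci (log2 axis). CTCF reached 32.4% at 30 to 34 bp and had the largest ratio, 9.73, while PU.1 had the smallest at 0.368.

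The edges of wide footprints were set against the core. Here a core had to overlap the union of both footprints rather than lie in the 40 bp window, so the counts differ slightly from those above. In 5719 wide loci with a single core, the right edge lay at a median of 23 bp after the first base of the core in replicate 1 and 24 bp in replicate 2, 11 to 12 bp past its end, with 10th to 90th percentiles of 19 to 27 bp and 20 to 27 bp. The left edge fell in separate groups. In 3984 loci (69.7%) it was at most 10 bp before the core in both libraries, and these footprints had median widths of 29 and 31 bp. In 960 loci (16.8%) it was at least 15 bp before the core in both, with medians of 21 and 22 bp, and these footprints were 41 and 43 bp wide. The remaining 775 loci had a median left edge 7 bp before the core in replicate 1 and 20 bp in replicate 2. In narrower loci with a single core the right edge was at 16 bp in both libraries. The core lay wholly inside both footprints in 98.1% of the wide loci, which their width makes possible.

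The long form went with a second sequence element. CTCF sites are known to carry, in some cases, an upstream element that other zinc fingers of the protein contact. The letters GCANTNCC, chosen after the values were seen, started exactly 16 bp before the core in 581 of the 5719 wide loci, and the next most frequent starts in the DNA around the core held 22 each. They were present in 424 of the 960 long forms (44.2%) and in 25 of the 3984 short forms (0.628%). Of the 581 loci with these letters, 73.0% had the long left edge in both libraries, and of the 5138 without them 10.4%. In replicate 1 alone those shares were 76.4% and 11.2%, and in replicate 2 alone 91.0% and 20.3%. Among narrower loci with a single core, 105 carried the letters and 2 of these had the long left edge. Footprints under 25 bp that touch the core can hardly start that far before it, so the width rule largely set this count. Soft-masked reference bases, which mark repeats, were present in 52.8% of long forms and 17.0% of short forms, and their part in the difference was not tested.

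**Figure D3:**
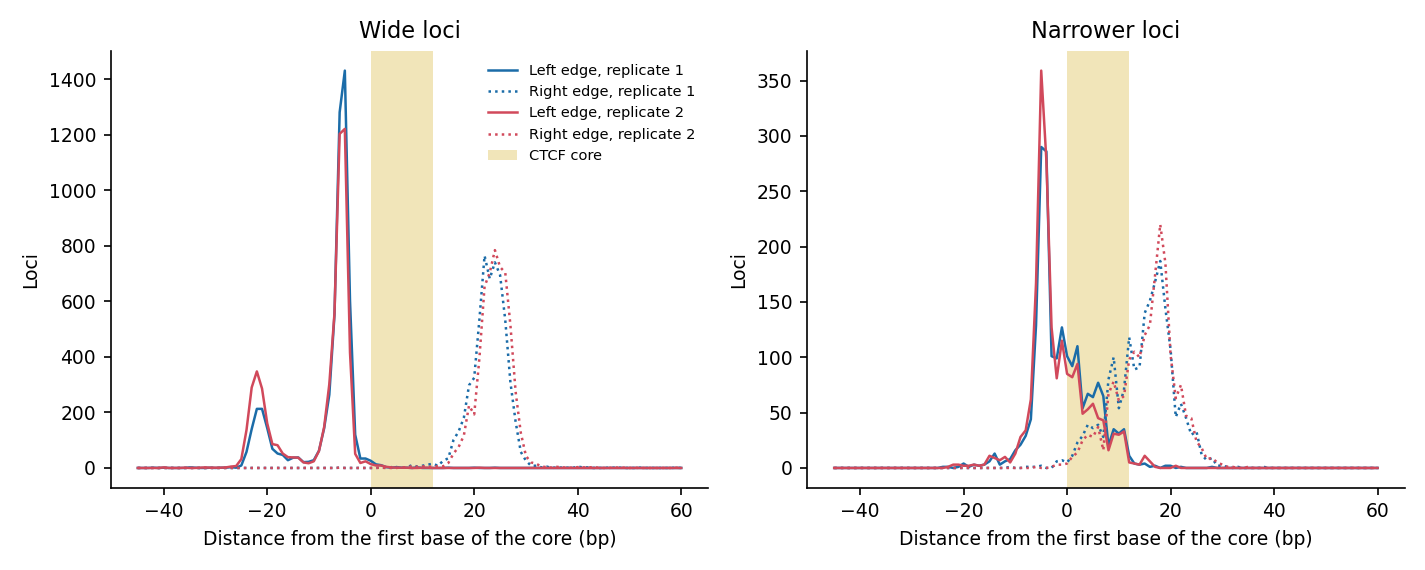
Position of the left (solid) and right (dotted) footprint edge in each library, in bp from the first base of the CTCF core (shaded), for wide loci on the left and narrower loci on the right. Left edges of wide loci have 2 peaks, about 6 bp and about 22 bp before the core, and right edges have 1.

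Wide loci with a CTCF core lay in regions of lower signal than other wide loci, though above the median of all shared regions, which was 1.08 in replicate 1 and 0.989 in replicate 2. Wide loci with a core lay in regions with a median signal of 1.80 in replicate 1 and 1.73 in replicate 2, against 0.683 and 0.642 for narrower loci with a core. Wide loci without a core lay in regions with medians of 6.24 and 5.46, against 2.16 and 1.89 for narrower loci without one. Within wide loci the core was in 7.25% of those within 1 kb of a protein-coding start site, 36.3% at 1 to 5 kb, 39% in exons, 45.4% in introns and 41.4% in intergenic DNA. In the same places narrower loci had shares of 0.949%, 3.27%, 3.99%, 4.84% and 5.12%. Wide loci with a core had a median distance of 12503 bp to the nearest protein-coding start site, and wide loci without one 540 bp.

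REST, CREB, NRF1 and ZNF143 followed CTCF in the ratio of shares. These 4 and CTCF had the highest ratios among the 27 of 36 searched motifs that were found in at least 30 wide loci; 7 of the 27 had a ratio of 1.5 or more, 8 had 0.67 or less and 12 lay between. REST was searched as AG, any base, ACC, any 2 bases, GGA, any base and AG. It was in 98 wide loci (0.466%) and 92 narrower loci (0.127%), a ratio of 3.67, against 0.0694% of the tiles. In replicate 1 alone the shares were 0.468% and 0.131%, and in replicate 2 alone 0.442% and 0.115%. Wide REST loci extended a median of 7 bp before the match and 8 bp after it in replicate 1, and 7 and 9 bp in replicate 2. The match lay wholly inside both footprints in 97 of the 98 wide loci. Their regions had median signals of 1.70 and 1.39, lower than the 4.04 and 3.68 of all wide loci but above the 1.08 and 0.989 of all shared regions.

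The sites printed above for Nkx1-1, a homeobox gene, and Npas4, an activity-dependent transcription factor gene of neurons, show the REST form. At Nkx1-1 the footprint was 29 bp in both libraries, and the region had a signal of 6.04 in replicate 1 and 4.57 in replicate 2. At Npas4 it was 28 and 29 bp with signals of 5.35 and 5.13. The wide locus in the strongest region with a REST match lay 263 bp from a start site of Ccdc92b, was 32 and 33 bp wide and had signals of 7.33 and 5.24. REST matches were also in the strongest wide locus near Grin1, a glutamate receptor subunit gene, which was 35 and 31 bp wide, and in the locus near Olfr464, an olfactory receptor gene, which was 29 and 27 bp wide.

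CREB, NRF1 and ZNF143 sites of wide loci were found at strong promoters. CREB, the factor of the cAMP response, was searched as TGACGTAA or TGACGTCA and was in 1.10% of wide loci and 0.465% of narrower loci. NRF1, a regulator of mitochondrial and other widely expressed genes, was searched as GCGCA and GCGC with 1 base between, and was in 2.52% and 1.24%. ZNF143, a promoter-binding zinc finger protein, was searched as ACTACA and TCCC with 2 bases between, and was in 0.566% and 0.308%. The tiles of shared regions held these sites in 0.225%, 0.504% and 0.160%. Over all shared loci by the lower of the 2 widths, NRF1 and CREB were most frequent at 20 to 24 bp, at 4.46% and 1.38%. Bins from 25 bp on held NRF1 in 1.11% to 3.19% and CREB in 0.416% to 1.29%. At 20 to 24 bp, 57.4% of loci were wide in 1 library and belonged to neither class, so these ratios leave them out. The share of wide loci within 1 kb of a start site was 87.9% for CREB, 93.8% for NRF1 and 92.4% for ZNF143, against 24.5% for REST and 11.2% for CTCF. Median region signals of wide loci in replicates 1 and 2 were 13.4 and 10.9 for CREB, 13.6 and 11 for NRF1 and 9.79 and 8.27 for ZNF143. Wide ZNF143 loci reached a median of 17 bp past the end of the match in both libraries and 3 and 2 bp before it, so the footprint was off-centre, with 56.3% of the matches wholly inside both footprints.

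The single loci named here lie in the strongest regions of their kind and so have higher signals than the medians above. The CREB site near Stat3, a gene for a cytokine signal transducer, lay in footprints of 39 and 40 bp in a region with signals of 30.7 and 33.2. The NRF1 site near Nup107, which encodes a nuclear pore protein, lay in footprints of 34 bp in both libraries, with signals of 49.9 and 38.5. Another NRF1 locus, at Ing2, was 43 and 45 bp wide, with signals of 38.4 and 32.2. The ZNF143 site near Crebl2 lay in footprints of 46 and 31 bp, with signals of 29 and 20.6. Both a CREB and a ZNF143 match were found near Ube2h, a ubiquitin-conjugating enzyme gene, in separate wide loci of 38 and 39 bp and of 47 and 56 bp in the same region, whose signals were 29.4 and 31.1. A CREB match was also in a wide locus of 25 bp in both libraries at Mxd1, which encodes a partner of MAX, with signals of 31 and 25.2. ZNF143 matches were in wide loci of 48 and 47 bp at Gm21887, with a repeated word, and of 35 and 33 bp at Pnkd.

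Several short sites of blood factors were less frequent in the 40 bp windows of wide loci, though not that of RUNX factors, TGTGGT, which was in 2.70% of wide loci and 2.45% of narrower loci. PU.1, a master regulator of myeloid and B cells, was searched as GAGGAAGT or GGGGAAGT and was in 0.314% of wide loci and 0.852% of narrower loci. The AP-1 and NF-E2 site, TGACTCA or TGAGTCA, was in 0.304% and 0.708%, and the GATA site, AGATAA or TGATAA, in 1.16% and 2.28%. The paired E-box and GATA site of erythroid cells, CTG with AGATAA or TGATAA after 6 to 8 bases, was in 0.219% of wide loci and 0.490% of narrower loci. The tiles held the 4 sites, in that order, in 0.892%, 0.678%, 2.54% and 0.330%. The flanking windows of wide loci held them in 0.388%, 0.447%, 2.08% and 0.0999%. Those of narrower loci held them in 0.654%, 0.556%, 2.35% and 0.281%. The 4 sites were thus also less frequent in the DNA beside wide loci, not in the footprint alone. In replicate 1 alone this paired site was in 0.382% of footprints of 25 bp or more and 0.496% of shorter ones, and in replicate 2 alone in 0.206% and 0.428%. These differences depended on the bases searched. In the locus with only 5 bp added on each side, a longer stretch in wide than in narrower loci, the shares were 0.352% and 0.414% for PU.1, 0.390% and 0.394% for AP-1 and NF-E2, 1.42% and 1.38% for GATA, and 0.266% and 0.236% for the paired site. The cause was not tested. CTCF kept its gap there, at 27.2% and 2.42%.

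The GC box GGGCGG was in 14.6% of wide loci, 15.8% of narrower loci and 8.41% of the tiles, so its presence did not set the classes apart. At least 2 GC boxes lay in 819 wide loci (3.9%) and 999 narrower loci (1.38%), and at least 2 KLF sites (CCACACCC, CCACGCCC, CCCCACCC or CCCCGCCC) in 574 (2.73%) and 441 (0.608%), both counted in the locus with 5 bp added on each side, a longer stretch in wide loci. Among wide loci of 40 bp and over, 6.06% had at least 2 GC boxes and 6.20% at least 2 KLF sites. In narrower loci of 20 to 24 bp, which are closer in length to the wide ones, the shares were 3.28% and 1.51%, so the gap in GC boxes was small there. None of the 36 motifs was found in 8232 wide loci (39.2%) and 38815 narrower loci (53.5%).

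A further class of wide loci lay in tRNA genes, a group added after the values were seen. RefSeq annotates 403 tRNA genes on the assembled chromosomes, of which 227 overlapped a shared region and 172 of those (75.8%) held the centre of a wide locus. These 172 loci were 0.818% of wide loci, and 77 narrower loci (0.106%) were centred in tRNA genes. The wide footprints covered the 3′ part of the gene: they ran from a median of 40 bp into the gene to 76 bp in replicate 1 and from 39 to 77 bp in replicate 2, in genes with a median length of 73 bp, and were 35 and 37 bp wide. All 172 were centred past base 36 of the gene. The narrower ones ran from 1 to 14 bp in both libraries by their medians, but were spread over the gene. Their 10th to 90th percentiles were -7 to 53 bp for the start and 6 to 71 bp for the end.

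The B box, the element in the 3′ part of tRNA genes that TFIIIC binds, was matched in most of these loci. Its letters GTTCGANNC, on either strand of the 40 bp window, were in 79.1% of wide loci in tRNA genes and 18.2% of narrower loci in tRNA genes, against 0.144% of the tiles of shared regions. As the wide loci covered the part of the gene where this element lies, the gap between the classes restates their position. The tiles are not limited to tRNA genes, and the share in tRNA genes without a footprint is not given here. The footprint in the serine tRNA gene n-TStga3 (chr10:63429476-63429557) was 39 bp in replicate 1 and 44 bp in replicate 2, with region signals of 16.9 and 19.7. That in the arginine tRNA gene n-TRtcg5 (chr7:79466419-79466491) was 41 and 44 bp, with signals of 16.2 and 15.6. Many tRNA genes are near-copies of each other, and 69.8% of these wide loci and 7.79% of the narrower ones held a 36-base word that occurs more than once in the reference, and how reads of such words were placed is not given in the sources used here. The 2 genes printed above hold no such word.

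Wide loci lay in regions of higher signal. The median region signal was 4.04 in replicate 1 and 3.68 in replicate 2 for wide loci, against 2.09 and 1.83 for narrower loci, ratios of 1.93 and 2.01. The interquartile ranges overlapped widely, from 1.69 to 10.5 and from 0.968 to 5.77 in replicate 1. At promoters the medians were 11.4 and 9.56 for wide loci and 5.34 and 4.31 for narrower loci, and in introns 1.74 and 1.68 against 1.08 and 0.981. Both classes could be found in the same region: in the 11526 regions that held both kinds, the mean log2 ratio of the wide to the narrower median was -0.044, as both are then taken from one set of regions. Wide loci sat closer to the middle of their region, at a median of 18 bp against 50 bp for narrower loci. With a CTCF core the medians were 7 bp in wide and 12 bp in narrower loci, and without one 31 and 51 bp. Narrower loci with a core thus sat closer to the middle than wide loci without one.

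**Figure D4:**
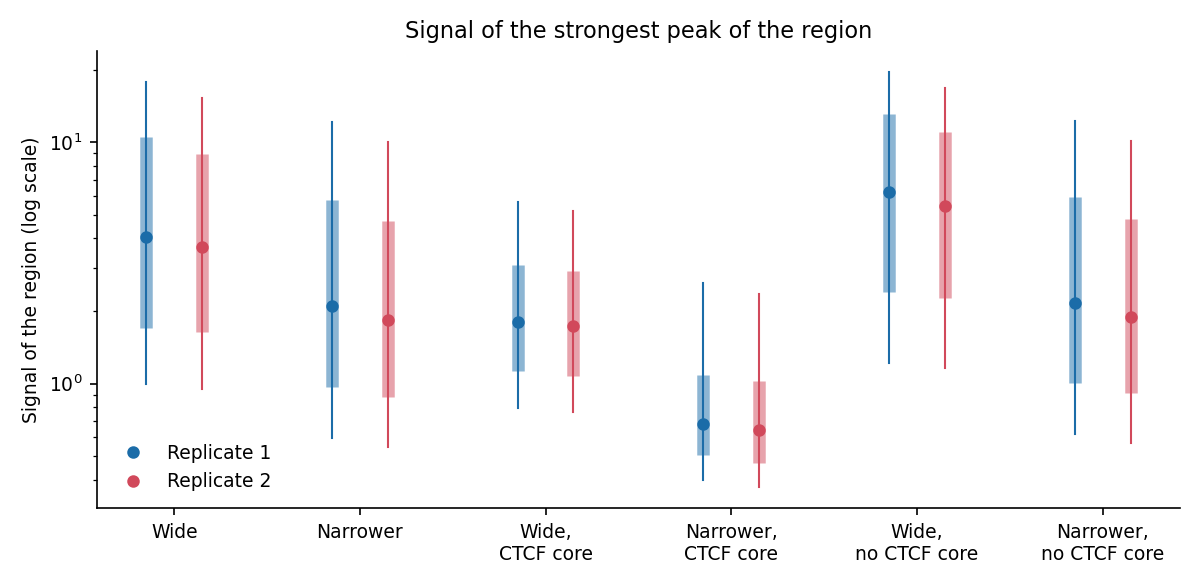
Signal of the region (log axis, authors' scale of each library) for wide and narrower loci, in all and split by a CTCF core match; points are medians, thick bars the interquartile range and thin bars the 10th to 90th percentile over loci. Wide loci lie higher than narrower ones in each pair, and those with a core lie lower than those without.

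Of the 60596 shared regions, 16056 (26.5%) held a wide locus, 3862 held at least 2 and 13462 held no shared locus. When regions were put in 10 bins by the lower of their 2 signal ranks, 0.745% of those in the lowest bin and 68.5% of those in the highest held a wide locus. The CTCF share of the wide loci ran the other way, at 50% of the 58 wide loci in the lowest bin, 46.2% in bin 7, 18.8% in bin 9 and 4.97% in the highest. The part of region signal in footprint width was not tested.

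By place, wide loci were less often at promoters and more often intergenic than narrower loci in the shared set. Within 1 kb of a protein-coding start site of GENCODE vM21 lay 41.8% of wide loci and 48.3% of narrower loci. The shares at 1 to 5 kb were 13.2% and 12.1%, in exons 3.9% and 3.63%, in introns 19.8% and 18.7%, and in intergenic DNA 21.3% and 17.3%. Wide loci with a CTCF core were at promoters in 11.2% and intergenic in 32.5%, and those without one in 53.2% and 17.2%. Set against all narrower loci, the lower promoter share was thus that of wide loci with a core, and it turned round in the others. The promoter difference was not found in the libraries taken alone, where the shares were 44.5% and 44.1% in replicate 1 and 41.9% and 42.7% in replicate 2, and with a limit of 20 bp it turned round, at 47.9% and 45.9%. Around start sites both classes were more often upstream. In the 500 bp upstream lay 28.5% of wide loci and 26.7% of narrower loci, and in the 500 bp that follow 9.86% and 16.2%. Of the wide and narrower loci together, 23.6% were wide in the 500 bp upstream and 15% in the 500 bp that follow, against 22.5% over all places. The difference thus lay mainly in a lower wide share downstream. From 50 to 250 bp on either side, the wide share was 25.1% upstream and 13.9% downstream.

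**Figure D5:**
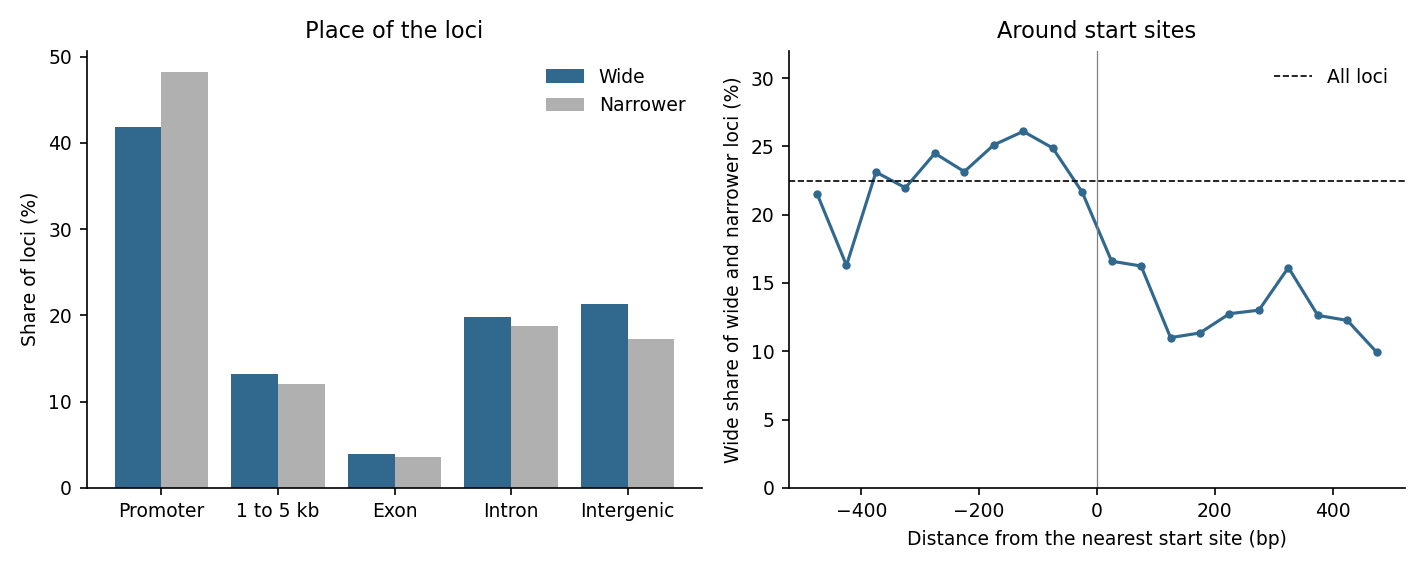
Left, share of wide and narrower loci by place (promoter, within 1 kb of a protein-coding start site; then 1 to 5 kb, exon, intron and intergenic); right, wide share of the wide and narrower loci in 50 bp bins around the nearest start site, with negative distances upstream and the share over all loci dashed. The wide share is 26.1% at 100 to 150 bp upstream and 11% at 100 to 150 bp downstream.

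Base content differed little over all loci, and more within regions that held both kinds. In the 40 bp windows, wide loci had a mean GC content of 61.5% and narrower loci 61.2%, with 2.33 and 2.35 CpG per window. The flanking windows had 54.9% and 58.2%. In regions with both kinds of locus, mean GC was 62.4% in wide and 58.4% in narrower loci. The sign of the difference changed with the processing, for instance to 62.9% in wide and 65.7% in narrower loci when the footprint bases alone were counted. Some soft-masked base was in 18.6% of wide loci and 18.9% of narrower loci, and a repeated 36-base word in 2.45% and 1.74%. Wide loci of 40 bp and over held soft-masked bases in 28.8% and a repeated word in 5.55%. On the autosomes the wide share of wide and narrower loci ran from 20.7% on chromosome 13 to 24% on chromosome 11, and it was 17.6% on chromosome X.

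Of the 10 widest loci, 6 held a 36-base word that occurs elsewhere in the reference. By the lower of the 2 widths, which set this order, the widest was the GT repeat in an intron, 7341 bp from a start site of Epm2a, with 91 bp in replicate 1 and 90 bp in replicate 2 and signals of 3.35 and 1.66. Next came a site 333 bp from a start site of the predicted gene Gm10719 on chromosome 9, with 76 bp in both libraries and signals of 77.7 and 95.3. Among the 10 were also 2 sites close by, near Gm10717 and Gm10718. These chromosome 9 sites held soft-masked bases and a repeated word. How reads of such words were placed is not given, so whether a signal belongs to 1 copy cannot be told. The 4 of the 10 with no repeated word were near R3hdm1 (61 and 63 bp), Ewsr1 (60 and 61 bp), Uvrag (70 and 59 bp, with a CTCF core) and Rnf126 (64 and 57 bp). The region with the highest signal that held a wide locus was on chromosome 9 near Gm11168, at 299.7 and 193.3, with a soft-masked footprint of 56 bp in both libraries. It lay close to the chromosome 9 sites above, and no list of problem regions was applied here. A wide locus of 55 bp in both libraries, intergenic and soft-masked, 35455 bp from Pak3 on chromosome X, followed at 133.7 and 72.4. Besides the site at Gm10719, the 5 strongest held 2 promoter loci with no repeated word or masked base. That at Dynlt1b was 51 and 56 bp wide with signals of 51.9 and 59.3, and that at Nup107 35 and 36 bp wide, next to the NRF1 site printed above.

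Wide loci were near 9326 protein-coding genes, counted as the nearest start site within 50 kb, and 23 genes had at least 10 of them. Ptma, which encodes prothymosin alpha, and the predicted gene Gm21887 had 17 each. All 17 near Gm21887 held a repeated word, and none of those near Ptma did, where 6 held a CTCF core. Abt1 had 15, Hist1h4h 14 and Zfp184 13, all on chromosome 13, and 7, 7 and 9 of these lay in tRNA genes. Sept9, which encodes a septin, also had 13, with 4 CTCF cores. Aurkb had 12, with 6 in tRNA genes, and Gtf2ird1 had 12 with none in tRNA genes. Cd82, Ddr1, Dhx37, Prex1 and Sh3pxd2a had 11 each, and held a CTCF core in 6, 1, 1, 4 and 3 of them.

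Near start sites, 5962 of 21829 protein-coding genes had a wide locus within 1 kb, a share of 27.3%, and 52.8% had a narrower one. Lists of broadly expressed and of erythroid genes had higher shares. The counts were 15 of 20 housekeeping genes, 49 of 80 ribosomal protein genes, 18 of 30 erythroid genes and 9 of 20 cell cycle genes. Narrower loci were at 20, 74, 30 and 20 of the same genes. The strongest wide locus of the erythroid list was 68 bp from a start site of Zfpm1, which encodes the GATA1 cofactor FOG1, with 29 bp in both libraries and signals of 29 and 26. That of the housekeeping list was at Eef2, a translation elongation factor gene, with 31 and 29 bp and a CREB match. Rpl7a, a ribosomal protein gene, had one of 41 bp in both libraries with signals of 33.8 and 26.2. Ccne1, the cyclin E1 gene, had one of 38 and 39 bp with signals of 32.8 and 28.9.

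Other lists were near or under the share of all genes. Wide loci were near 5 of 18 B cell genes and 112 of 394 zinc finger genes. They were near 2 of 21 myeloid, 2 of 16 stem and progenitor, 2 of 16 endothelial and stromal and 1 of 10 megakaryocyte genes. Narrower loci were near 11 of the B cell and 297 of the zinc finger genes (61.1% and 75.4%), against 52.8% of all genes. In the other 4 lists, in that order, they were near 9, 11, 7 and 3 genes. None of 20 T and natural killer cell genes had one, although 7 of them had a narrower locus. Among genes of tissues that spleen should lack, 0 of 9 hepatocyte and 1 of 10 neuronal genes had one, and so did 1 of 1133 olfactory receptor genes, 1 of 39 Hox genes and 1 of 56 clustered protocadherin genes. The single neuronal gene was Grin1 and the single olfactory receptor gene Olfr464, both with the REST match given above, and the single Hox gene was Hoxa10, whose footprint of 28 and 29 bp held a CTCF core.

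The myeloid locus in the strongest region was 55 bp from a start site of S100a8, a gene of neutrophils, with 32 and 42 bp and signals of 1.81 and 2.14. In the stem and progenitor list it was at Lyl1, a basic helix-loop-helix factor gene, with 42 and 38 bp, signals of 14.2 and 11 and a paired E-box and GATA site. At Tcf3, which encodes the E2A proteins of B cell development, the footprint was 48 and 51 bp and the signals 18.4 and 12.2. In the zinc finger list the locus was at Zfp654, with 33 and 37 bp and signals of 31.5 and 24.5. The loci of the remaining lists had widths of 31 and 43 bp at Madcam1, 32 and 33 bp at Nbeal2 and 26 and 42 bp at Pcdhgb6, and signals of 2.84, 1.18 and 1.30 in replicate 1. Within 50 kb of a start site, 65.4% of all protein-coding genes had a wide locus, as did 30 of 30 erythroid, 16 of 18 B cell, 14 of 20 T and natural killer cell, 12 of 21 myeloid and 4 of 9 hepatocyte genes. Wide loci at this distance are counted for every gene whose window holds them, so neighbouring genes share them.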

How the data were processed

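Peaks, footprints and per-position values of each library were deposited by the authors, in mm10 coordinates per the labels. Not given in the sources used here are the aligner, the callers, their versions and the placement of reads with CAST/EiJ alleles. Column 7 of the peaks is a signal, deposited on a scale of each library's own that is not stated. The q-value (FDR) the authors give a footprint is one and the same in all lines, and that of the positions was not used.

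Overlapping peaks of both longer lists were merged (105096 regions), and 60596 regions with a peak of each library were kept. Footprints touching them were joined across libraries by an overlap of at least 1 bp, and 1 pair stood for each locus, the one with the largest lower width. Place, GC and motifs were taken at or in 40 bp on the locus centre from GRCm38, whose 21 chromosomes contain every coordinate of the lists. Annotation was GENCODE vM21, and RefSeq for tRNA genes. Repeated words are 36 bases found more than once on the assembled chromosomes. One of 10 hepatocyte genes was not in the annotation.

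Named were the 10 widest loci, 5 in the strongest regions, 3 for each of the 5 motifs with the highest ratio, 10 genes with the most wide loci, ties included, the strongest locus of each gene list, and 5 loci on either side of the limit. One gene that the rule names is not reported here. Members, motifs and gene lists were chosen with earlier results of these data known. Loci and motif counts were checked on planted data. Alternatives were other widths, overlaps, peak lists, windows and patterns, and each library alone. Python 3.11.15, numpy 2.4.6, pandas 2.3.3 and pysam 0.24.0 were used.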

Additional observations from a re-analysis of the deposited data

How the results depend on the processing

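Values are wide minus narrower shares in percentage points, or the mean log2 ratio of median region signals. As reported they were -6.48 for promoters, 0.289 for GC, 24.4 for CTCF, -0.271 for the paired E-box and GATA site, -0.265 for masked bases and 0.98 for signal. With a width of 20 bp there were 35182 wide loci, and the values were 2.02 for promoters, 1.90 for GC, 19 for CTCF, -1.62 for masked bases and 1.30 for signal. With 30 bp there were 10391, with -0.480 for GC, 22.7 for CTCF, 2.25 for masked bases and 1.12 for signal. Overlap of most of each footprint (at least 50% of both) gave -8.87 for promoters, -0.0320 for GC, 0.0259 for masked bases and 0.79 for signal. The stricter peak lists gave -10.9, -0.136, 0.289 and 0.69 for the same results. Leaving out each library in turn gave 26934 to 32555 wide footprints, -0.800 to 0.348 for promoters, 1.25 to 1.48 for GC, 19.7 to 20.7 for CTCF, -0.223 to -0.114 for the paired site, -0.611 to -0.0294 for masked bases and 1.30 to 1.40 for signal. The share of wide footprints with a wide partner, 71.3% over both libraries, has no value with 1 library.

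Regions with both kinds of locus gave -3.37 for promoters, 4.05 for GC, 26.9 for CTCF, 0.0288 for the paired site, -2.04 for masked bases, -0.044 for signal and 86.7% for wide partners. Signal comes from one set of regions there. Choosing regions that hold a wide locus also raises the share of wide partners and leaves out narrower loci of other regions. Regions in the top 25% of signal in both libraries had 12654 wide loci and gave -16.2 for promoters, -1.59 for GC, 12.8 for CTCF, -0.107 for the paired site, 2.19 for masked bases and 0.34 for signal. Without masked loci CTCF was 22.3, and the masked share has no value. A promoter window of 500 bp gave -4.57, and GC of the footprint bases -2.79. CTCF was 22.9 in 60 bp, 15.5 with another pattern and 37.8 with 1 mismatch, chosen after seeing the data. The paired site was 0.0305 in the locus with 5 bp added and -0.370 in 60 bp. Apart from the construction of the region sets, the cause of these changes was not tested. CTCF was higher in wide loci under every alternative run, and leaving out loci with a repeated 36-base word, also chosen afterwards, changed no direction. No paired analysis was possible because there is 1 group, with no second one to pair it with.

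Limits: depth is unknown, a weak footprint can be missed in either library, masked repeats were not classed, and motif matches are sequence only. Regions known to give false signal were not filtered out here.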
